A study of Homo sapiens with 6 samples.

Results

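The nuclear genes for subunits of the mitochondrial respiratory chain were examined in the H3K27ac peak list of the clear cell sarcoma (CCS) line SU-CCS-1. Members were the protein-coding genes of GENCODE version 44 on the autosomes and the X chromosome whose symbols begin with the subunit stems NDUFA, NDUFB, NDUFC, NDUFS, NDUFV, UQCR, ATP5F, ATP5P, ATP5M, COX4I, COX5, COX6, COX7 or COX8. Assembly factors named NDUFAF and symbols with a hyphen were left out. The rule gave 83 of 20015 protein-coding genes, of which 37 were assigned to complex I, 9 to complex III, 19 to complex IV and 18 to complex V. NDUFA4 and NDUFA4L2 were counted with complex IV, where the NDUFA4 protein resides. Of the 30784 deposited peaks, 96 lay within 3 kb of a start site of a member. Such a peak is called a promoter peak here.

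SU-CCS-1 is an established human CCS line that carries the EWSR1::ATF1 fusion. H3K27ac is the acetylated lysine of histone H3 found at active promoters and enhancers, and its positions were read by chromatin immunoprecipitation and sequencing (ChIP-seq) in 3 ChIP samples, with 3 samples of input chromatin as background. All samples came from this 1 line, so the design holds no second cell type or treatment, and the comparisons below are between genes. The authors deposited 1 merged list of peak positions without scores, read counts or a column per replicate, so no value below has a replicate error and the depth behind a peak is unknown. A gene without a peak lay below the calling cutoff or in a removed region, and is not shown to lack acetylation. Among genes of the melanocytic and neural crest lineage that CCS expresses, SOX10, MITF, PMEL, MLANA and S100B each had a promoter peak. None of 6 genes of other lineages had one (MYOD1, MYOG, CD3E, PTPRC, EPCAM and ALB). Of the lineage genes, only SOX10 and MITF had the canonical start inside a peak. The canonical start lay 82 bases from a peak at PMEL and 279 at S100B. At MLANA it lay 4512 bases away, and the promoter peak was near another annotated start.

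The respiratory chain of the inner mitochondrial membrane passes electrons from NADH and succinate to oxygen, and the proton gradient it builds across the membrane drives ATP synthesis. Complex I is the NADH dehydrogenase, complex III the cytochrome bc1 complex, complex IV the cytochrome c oxidase and complex V the ATP synthase. A few catalytic subunits of these complexes are encoded by mitochondrial DNA, and the others are nuclear genes whose promoters are known as targets of NRF1, of the ETS factor GABP, of YY1 and of the estrogen-related receptors. Most of the nuclear subunits are made in nearly every cell, and a few have forms restricted to tissues such as muscle, lung or testis.

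Promoter sequences of 5 members are shown first because their start regions carry letters that match known sites of 3 of those regulators. A match is not evidence of binding. Each is 200 bases long, 170 before the start and 30 from the start on, read 5′ to 3′ in the direction of transcription from the RefSeq table on GRCh38 (hg38). Capitals mark exact matches on either strand to GCATGCGC (NRF1), CCGGAAG (an ETS site, called GABP here) or AAGATGGC (YY1). A reverse-strand match appears as its reverse complement. ATP5F1C encodes the gamma subunit that turns inside ATP synthase (chr10:7788007-7788206, plus strand). COX5B encodes a subunit of complex IV (chr2:97645892-97646091, plus strand), and NDUFS3 is a core subunit of complex I (chr11:47578904-47579103, plus strand). ATP5PF encodes coupling factor 6 in the stalk of ATP synthase (chr21:25734875-25735074, minus strand), and NDUFS4 is an accessory subunit of complex I (chr5:53560469-53560668, plus strand).
ATP5F1C: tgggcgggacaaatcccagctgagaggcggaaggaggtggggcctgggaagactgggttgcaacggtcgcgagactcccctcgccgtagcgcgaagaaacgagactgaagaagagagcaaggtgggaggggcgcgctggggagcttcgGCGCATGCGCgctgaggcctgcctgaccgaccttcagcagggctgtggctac
COX5B: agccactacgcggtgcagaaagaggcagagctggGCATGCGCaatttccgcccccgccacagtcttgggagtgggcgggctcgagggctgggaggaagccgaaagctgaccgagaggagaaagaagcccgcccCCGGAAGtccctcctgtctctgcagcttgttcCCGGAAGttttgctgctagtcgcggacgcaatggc
NDUFS3: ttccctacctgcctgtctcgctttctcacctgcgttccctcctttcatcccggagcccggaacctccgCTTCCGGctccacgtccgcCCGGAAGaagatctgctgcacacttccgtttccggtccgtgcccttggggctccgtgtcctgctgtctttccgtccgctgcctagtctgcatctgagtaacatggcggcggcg
ATP5PF: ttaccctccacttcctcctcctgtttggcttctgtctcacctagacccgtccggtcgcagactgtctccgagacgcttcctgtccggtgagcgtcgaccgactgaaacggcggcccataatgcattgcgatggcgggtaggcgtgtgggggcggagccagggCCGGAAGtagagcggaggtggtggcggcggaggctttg
NDUFS4: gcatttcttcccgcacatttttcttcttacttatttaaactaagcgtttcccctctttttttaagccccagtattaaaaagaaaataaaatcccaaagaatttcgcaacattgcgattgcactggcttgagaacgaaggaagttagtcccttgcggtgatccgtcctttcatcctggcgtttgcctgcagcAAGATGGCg
In ATP5F1C the capitals are a pair of overlapping NRF1 matches on opposite strands, whose first bases lie 22 and 20 bases before the start. COX5B holds 1 NRF1 match and 2 GABP matches, the nearer beginning 5 bases before the start. NDUFS3 holds GABP matches on both strands, the printed bases of ATP5PF 1 that begins 8 bases before the start, and the YY1 match of NDUFS4 begins 21 bases after it. All 5 starts lay inside H3K27ac peaks, which measured 1650 bases at ATP5F1C, 1580 at COX5B, 1960 at NDUFS3, 2690 at ATP5PF and 1110 at NDUFS4.

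Nearly every widely used subunit gene had an acetylated promoter. A promoter peak was present at 74 of the 83 members, or 89.2% (95% Wilson interval 80.7 to 94.2), and at 63.4% of all protein-coding genes. The interval covers counting over genes alone and not the spread between replicates. Complex I was complete, with 37 of 37 genes. Complex III had 8 of 9, complex V 16 of 18 and complex IV 13 of 19, or 68.4%. The lower share of complex IV came with its many tissue forms, described below. When the 9 tissue-restricted forms and retrogenes were set aside, 73 of 74 genes (98.6%) had a promoter peak. Ribosomal protein genes, another set used in every cell, had 81 of 82 (98.8%), and aminoacyl-tRNA synthetase genes, which load amino acids onto tRNA, had 36 of 37 (97.3%). The restricted list of the members was drawn up with results of these data known, so its count is a description.

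**Figure D1:**
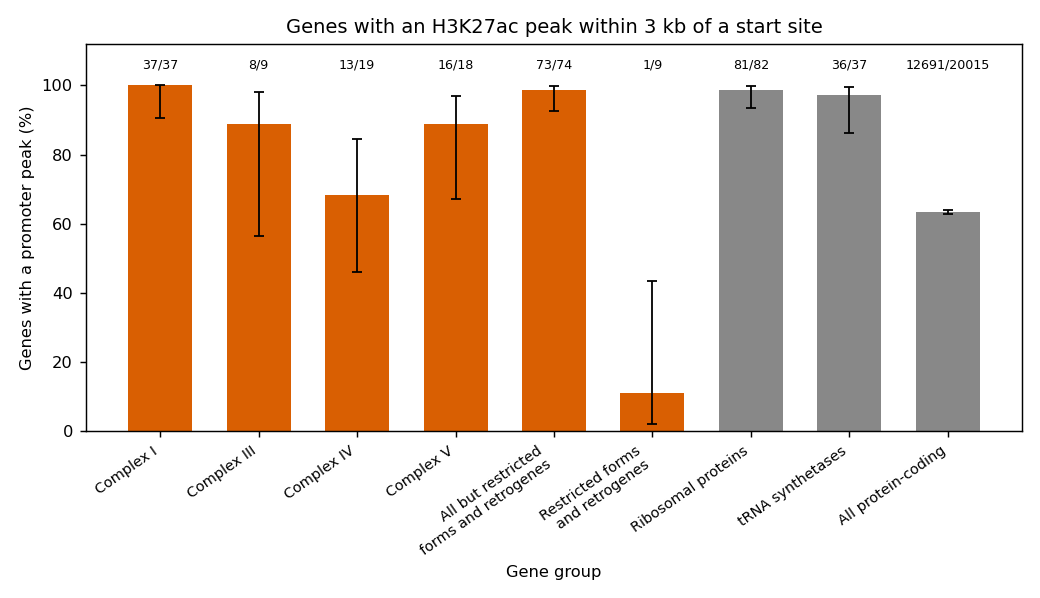
Bars give the percent of genes with a promoter peak (y axis) in each gene group (x axis), whiskers the 95% Wilson interval, and the fractions over the bars the counts. Complex I stands at 37 of 37, the restricted forms and retrogenes at 1 of 9, and all protein-coding genes at 63.4%.

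The peaks sat on the start sites themselves. The canonical start lay inside a peak at 70 of 83 members (84.3%), against 53.5% of all protein-coding genes. The share was 86.6% among ribosomal protein genes and 97.3% among aminoacyl-tRNA synthetase genes, so it was not particular to the members. By complex, the 70 members were 37 genes of complex I, 8 of complex III, 10 of complex IV and 15 of complex V. Among the genes with a promoter peak, the start was covered in 94.6% of members and in 84.4% of all genes. At 500 bases after the start the coverage was 95.9% of members and 77.2% of all such genes, and at 500 bases before it 70.3% and 59.6%. At 1000 bases after the start it was still 43.2% of members and 34.4% of all such genes, while at 1000 bases before the start it was 24.3% and 25.6%. By 1500 bases after the start the order had turned, with 13.5% and 16.3%.

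**Figure D2:**
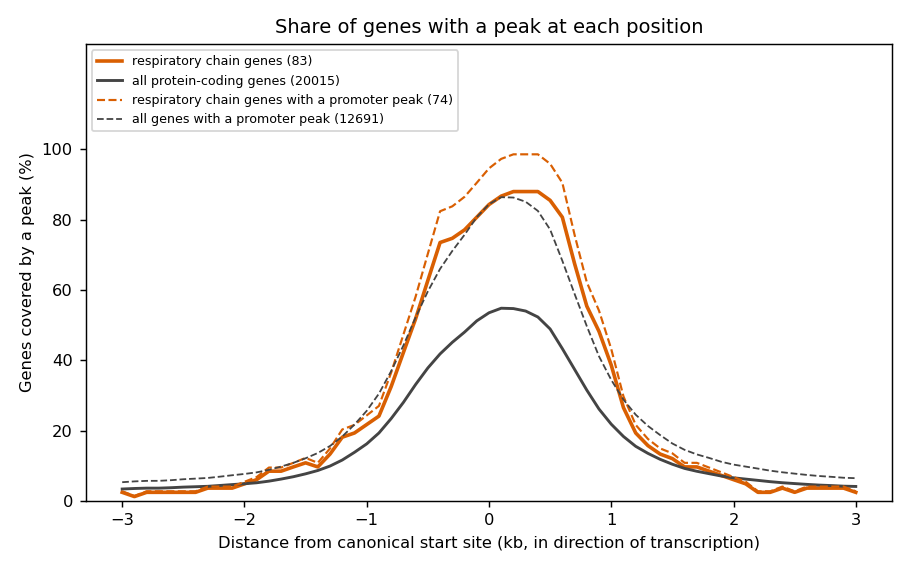
Lines give the percent of genes covered by a peak (y axis) at each distance from the canonical start in kb (x axis), for members in orange and all protein-coding genes in grey, with dashed lines for the genes that have a promoter peak. At the start 84.3% of members and 53.5% of all genes were covered.

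A member usually had a single promoter peak. Of the 74 genes, 58 had 1 peak, 10 had 2 and 6 had 3. Genes with 2 or more peaks made up 21.6% of these members, against 30.3% of all genes with a peak. The peak that held the start had a median width of 1645 bases in members (quartiles 1360 and 2205) and of 1600 in all genes (quartiles 1150 and 2170). The medians differed little, and the members had fewer extreme widths. Widths of 1 to 3 kb were found in 63 of 70 members (90.0%), against 72.0% of all genes with a covered start. No member start peak was wider than 5 kb, against 2.77% over all genes. By complex, the median was 1580 bases for complex I, 1765 for complex III, 1700 for complex IV and 1650 for complex V. The peak reached farther after the start than before it in 47 of 70 members (67.1%), a share near the 65.3% of all genes.

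**Figure D3:**
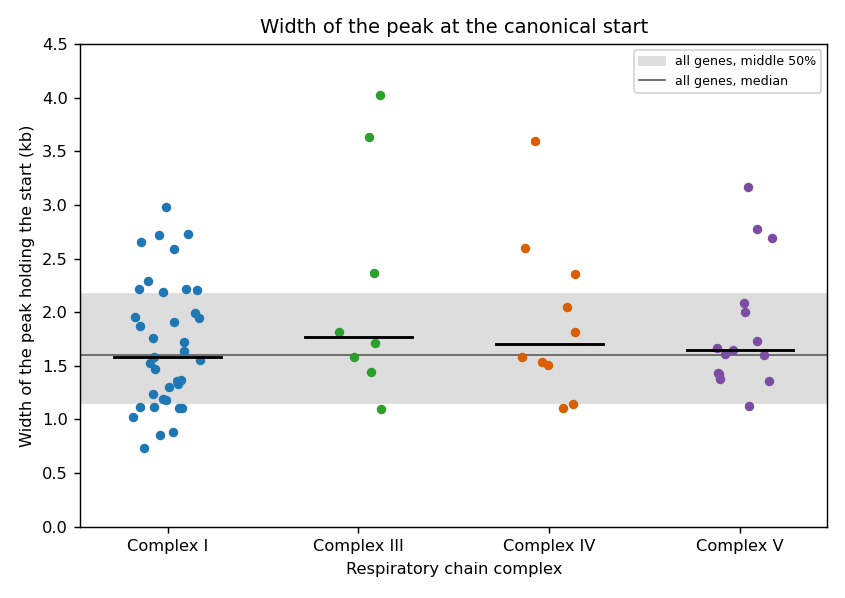
Each point is the width in kb (y axis) of the peak that holds the canonical start of 1 member, by complex (x axis), with black bars for the medians. The grey band and line give the quartiles and median of all protein-coding genes. Most points lie in or close to the band, and UQCRH at 4.02 kb is the widest.

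The widest start peaks belonged to genes of each complex. The widest was the 4020-base peak of UQCRH, the hinge subunit of complex III, at chr1:46300851-46304870, which extended 2847 bases before the start and 1172 after it and also took in the start of LRRC41. UQCRC2, a core subunit of complex III, followed with 3630 bases at chr16:21950871-21954500, of which 2490 lay before the start. COX8A of complex IV had 3600 bases at chr11:63973971-63977570, with 2950 of them after the start. ATP5F1D, the delta subunit of ATP synthase, had 3170 bases, and NDUFS1, a core subunit of complex I, had 2980. Thus the widest peaks extended upstream in some genes and into the gene in others. ATP5F1D lay in a gene-dense stretch of chromosome 19 and was also the member closest to a very wide peak. That peak, 9890 bases at chr19:1246721-1256610, began 4970 bases after its canonical start and lay near the starts of CIRBP and MIDN.

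The narrowest start peaks were in complex I. NDUFA5 had 730 bases at chr7:123557171-123557900, NDUFA8 had 860, NDUFA12 had 880 and NDUFB6 had 1020, and UQCRC1 of complex III followed with 1100. These are accessory subunits of complex I apart from UQCRC1, a core subunit of complex III. A further 4 members had a promoter peak that did not hold the canonical start. The 680-base peak of COX6B1 began 18 bases after the start. At COX7B the start fell in the 360-base gap between a peak of 450 bases before it and a peak of 1060 bases that began 33 bases after it. ATP5MC1, which encodes subunit c of the ATP synthase ring, had a 500-base peak that ended 477 bases before the start. COX6A2 had a 570-base peak that began 170 bases after the start. In the first 3 genes, which are widely expressed, acetylation was therefore listed beside the canonical start and not on it. Another annotated start of COX6B1 did lie inside its peak.

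**Figure D4:**
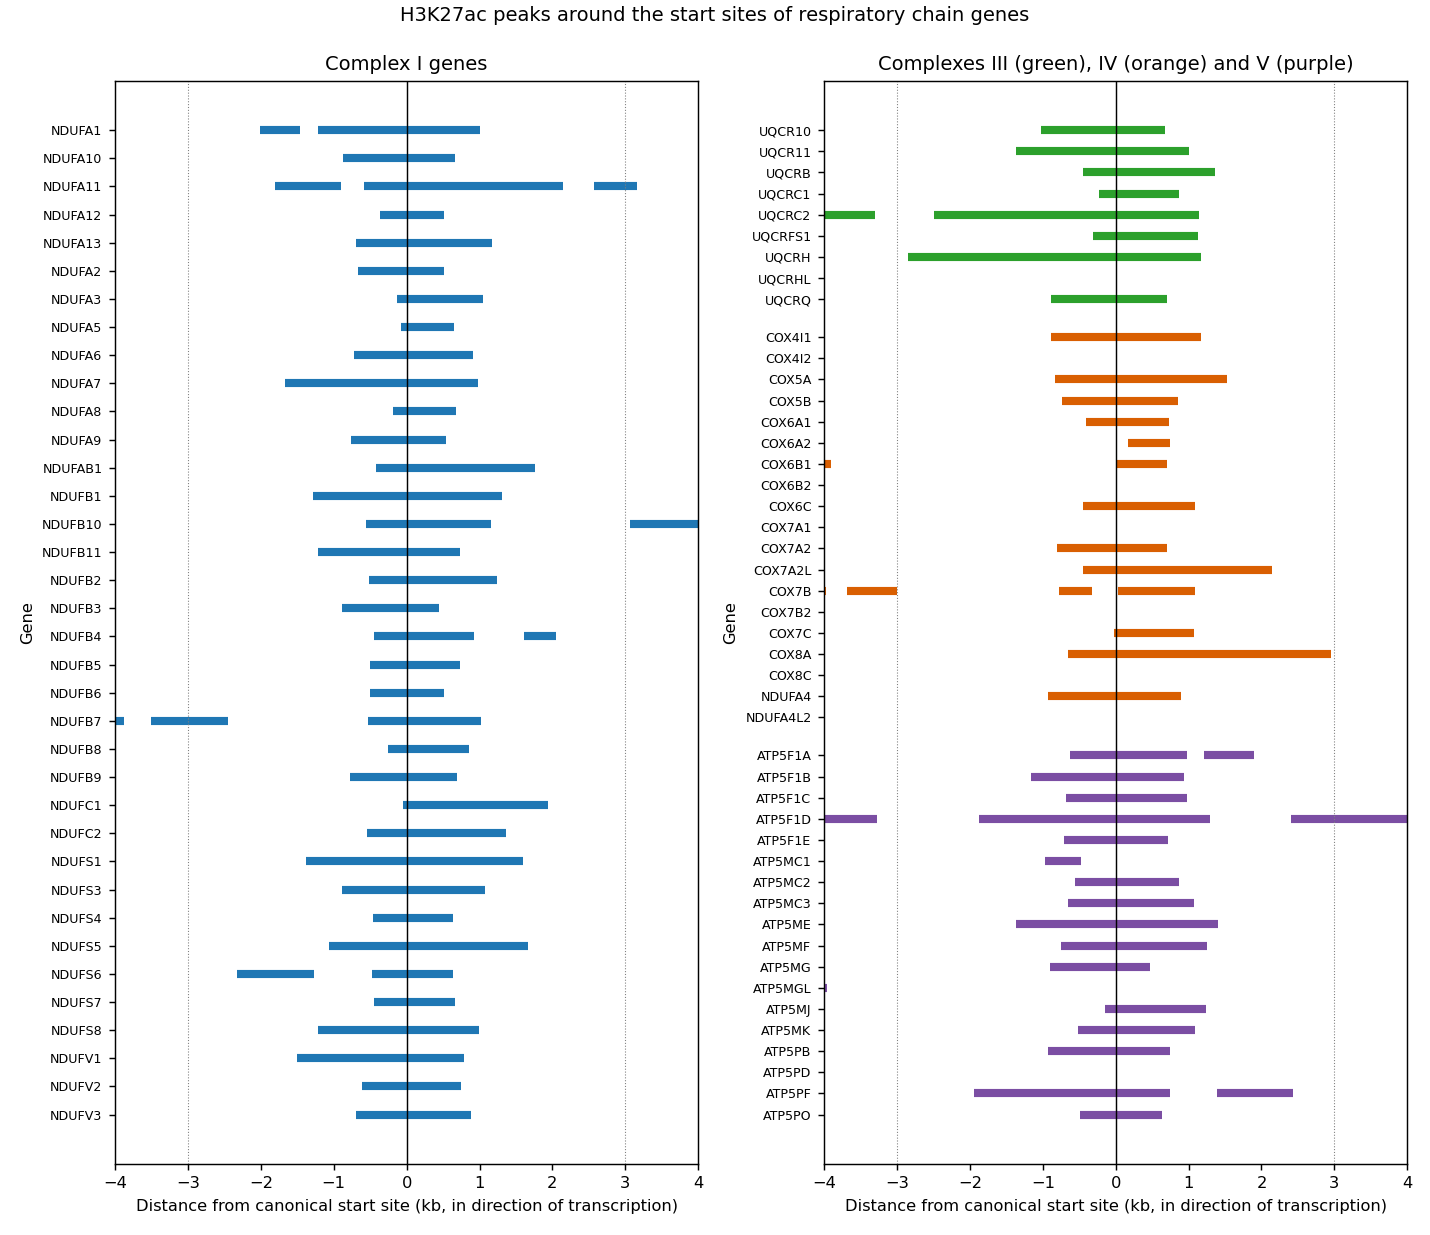
Each row is 1 member, with 1 complex I gene not drawn, and each bar 1 H3K27ac peak, placed by its distance from the canonical start in kb (x axis, positive in the direction of transcription), with complex I on the left and complexes III, IV and V on the right. Dotted lines mark the 3 kb window, and bars are clipped at the edge of the plot. Rows without a bar inside the dotted lines are the 9 members without a promoter peak.

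Core subunits of complex I include those that hold the flavin and the iron-sulfur clusters on the way to quinone. The width of the peak that held the start was 2980 bases at NDUFS1, 1960 at NDUFS3, 1110 at NDUFS7, 2210 at NDUFS8, 2290 at NDUFV1 and 1360 at NDUFV2. These widths span most of the range of the complex, which ran from 730 to 2980 bases. The X-linked members NDUFA1, NDUFB11 and COX7B had a promoter peak as well, and the start peaks of NDUFA1 and NDUFB11 measured 2220 and 1950 bases.

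The members without a promoter peak were nearly all isoforms restricted to some tissues or copies of another gene. Among paralogues of complex IV, COX4I1 had a 2050-base start peak while the start of COX4I2, the lung form, at chr20:31637912 lay 26662 bases from the nearest peak. COX7A2 had 1510 bases and the related COX7A2L 2600, while COX7A1, the heart and muscle form at chr19:36152447, lay 11097 bases from a peak. COX7B2 at chr4:46909245 and COX6B2 at chr19:55354719, both forms of testis, lay 518895 and 13419 bases from a peak, while COX7B and COX6B1 had promoter peaks. COX8C at chr14:93347182, also a testis form, lay 13342 bases away. NDUFA4L2 at chr12:57237104, known as a gene induced in hypoxia, lay 6034 bases from a peak, and NDUFA4 had 1820 bases. In each of these pairs the listed acetylation was at the widely expressed gene. Among the copies, UQCRHL at chr1:15807649 lay 25522 bases from a peak, and ATP5MGL at chr22:42640601 lay 3960 bases from one, while UQCRH and ATP5MG (1360 bases) had their starts covered. UQCRHL is nearly identical in sequence to the transcript of UQCRH, and whether reads shared by such copies changed the calls was not tested. Of the restricted forms, COX6A2, the heart and muscle form of COX6A1, was the exception with its 570-base peak, at chr16:31427621-31428190. COX6A1 itself had 1140 bases over the start. The subunit c genes of ATP synthase differed among themselves, since ATP5MC2 had 1430 bases and ATP5MC3 1730 over the start, and ATP5MC1 had the 500-base peak beside it.

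ATP5PD stood apart, because it encodes subunit d of ATP synthase, which is made in nearly every cell. Its start at chr17:75046969 lay 9629 bases from the nearest peak, which was 410 bases wide. Its head-to-head neighbour KCTD2, whose canonical start is 256 bases away, had 2 promoter peaks at other annotated starts, and its canonical start lay 9885 bases from a peak. The promoter of ATP5PD is shown beside those of COX8A and COX8C, the covered and uncovered genes of 1 paralogue pair, and of COX6A2. The windows are chr17:75046940-75047139, minus strand for ATP5PD, chr11:63974450-63974649, plus strand for COX8A, chr14:93347012-93347211, plus strand for COX8C and chr16:31428331-31428530, minus strand for COX6A2, with capitals as above.
ATP5PD: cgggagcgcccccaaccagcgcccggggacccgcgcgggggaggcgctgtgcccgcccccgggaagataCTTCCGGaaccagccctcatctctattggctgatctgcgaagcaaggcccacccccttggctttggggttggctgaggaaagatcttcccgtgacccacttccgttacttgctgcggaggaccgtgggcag
COX8A: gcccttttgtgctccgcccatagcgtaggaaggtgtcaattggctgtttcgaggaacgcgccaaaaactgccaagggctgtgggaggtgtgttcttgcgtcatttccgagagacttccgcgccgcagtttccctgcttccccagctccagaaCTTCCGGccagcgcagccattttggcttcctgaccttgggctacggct
COX8C: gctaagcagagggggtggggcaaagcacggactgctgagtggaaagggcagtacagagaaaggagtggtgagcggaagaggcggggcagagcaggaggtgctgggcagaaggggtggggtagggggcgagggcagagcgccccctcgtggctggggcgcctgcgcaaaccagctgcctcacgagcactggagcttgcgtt
COX6A2: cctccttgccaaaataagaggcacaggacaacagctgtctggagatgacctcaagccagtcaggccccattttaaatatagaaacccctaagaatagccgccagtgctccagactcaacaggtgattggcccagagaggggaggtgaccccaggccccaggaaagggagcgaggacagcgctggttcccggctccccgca
ATP5PD and COX8A each hold 1 GABP match on the reverse strand, beginning 101 and 18 bases before the start, and no such match was found in the printed bases of COX8C and COX6A2. The ratio of observed to expected CpG over the 300-base window of the table was 0.714 in ATP5PD, 0.793 in COX8A, 0.383 in COX8C and 0.247 in COX6A2. The other members without a peak that had an entry were COX6B2 at 0.799 and COX7B2 at 0.52. ATP5PD (70.0% GC) and COX6B2 (72.0% GC) thus had no listed acetylation over GC-rich promoters with CpGs, while COX6A2 had a promoter peak and the lowest ratio. The median ratio was 0.855 in the 62 members with a promoter peak and an entry in the table, and also 0.855 in all protein-coding genes with a peak, against 0.365 in genes without one. Whether ATP5PD lay in a stretch removed from the list was not tested.

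Many member promoters were shared with a second gene. A head-to-head coding partner, that is a start on the opposite strand within 1 kb upstream, was present at 23 of 83 members (27.7%), against 9.38% of all protein-coding genes. At 22 of these (95.7%) both starts lay inside 1 peak, against 80.0% of all genes with such a partner. Among genes with a partner, it was so at 14 of 14 ribosomal protein genes and 7 of 8 aminoacyl-tRNA synthetase genes. For complex IV assembly genes it was 4 of 7. Of the 22, 13 were in complex I, 3 in complex III, 1 in complex IV and 5 in complex V, and ATP5PD with KCTD2 was the pair without such a peak. The starts of these 22 pairs were 38 to 677 bases apart, with a median of 164.5. A head-to-head partner was also present at 21.6% of aminoacyl-tRNA synthetase genes and 17.1% of ribosomal protein genes. Among complex I assembly genes the share was 35.7%, and among complex IV members it was 5.26%. More broadly, 36 of the 74 members with a peak (48.6%) shared one with the 3 kb window of another coding gene, against 35.1% of all genes with a peak. A shared peak cannot be assigned to 1 gene, so its acetylation cannot be told apart between the member and the other gene. At NDUFS8, NDUFV3, ATP5F1A and ATP5F1B only peaks away from the canonical start were shared. The peak that held the canonical start of these genes was not within 3 kb of another coding gene's start.

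The partners were of varied function. NDUFA7 lay 121 bases from RPS28, a ribosomal protein gene, under a 2650-base peak. NDUFB5 lay 156 bases from MRPL47, which encodes a protein of the mitochondrial ribosome, and NDUFS1 lay 451 bases from EEF1B2, a translation elongation factor gene. COX4I1 lay 151 bases from EMC8 of the endoplasmic reticulum membrane complex, and UQCRH 82 bases from LRRC41. The closest pair was NDUFB9 with TATDN1 at 38 bases, and the widest spaced was NDUFA13 with TSSK6 at 677. ATP5PF lay 68 bases from GABPA, which encodes the DNA-binding subunit of GABP itself, and 1 peak of 2690 bases covered both starts. The peak reached 1946 bases before the start of ATP5PF, toward GABPA, and 743 bases into ATP5PF. The GABP match shown in capitals in the ATP5PF sequence above lies inside this shared peak.

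The promoter letters of the members were compared with those of all genes. The RefSeq table, with 250 bases before the start and 50 after it, held 66 of the 83 members and 15349 of the protein-coding genes. Both strands were searched for exact letters, and a match is a description and not a bound site. NRF1 letters GCATGCGC were found in 11 members (16.7%), against 4.38% of all promoters and 5.79% of those with a promoter peak. GABP letters CCGGAAG were in 19 members (28.8%), against 14.8% of all and 20.4% of those with a peak. YY1 letters AAGATGGC were in 11 members (16.7%), against 4.15% and 5.68%. At least 1 of these 3 was present in 35 members (53.0%), against 21.2% of all promoters and 28.8% of those with a peak. Members with 2 or more of the 3 kinds were 6 (9.09%, against 2.05% of all), namely NDUFA6, NDUFS7, COX5B, COX6A1, ATP5ME and ATP5PF.

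**Figure D5:**
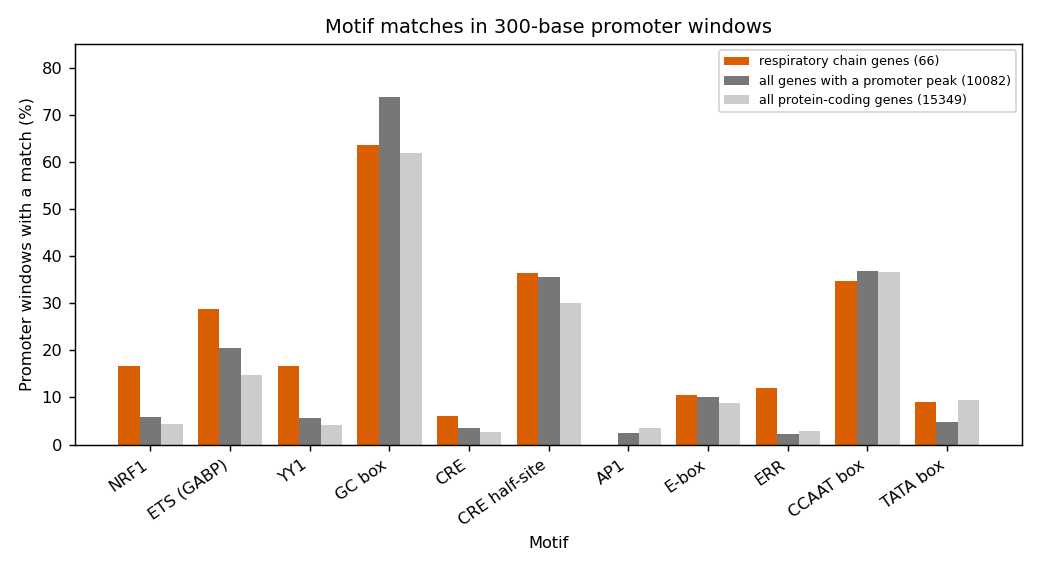
Bars give the percent of 300-base promoter windows with a match (y axis) to each motif (x axis) for members, for all protein-coding genes with a promoter peak and for all protein-coding genes. NRF1, GABP, YY1 and ERR stand higher in members (16.7%, 28.8%, 16.7% and 12.1%), and the GC box (63.6%) lies between all genes (61.8%) and those with a peak (73.8%). The full CRE, described below, was in 4 members (6.06%), against 2.76% of all genes and 3.47% of those with a peak.

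The matches also differed in place. The median first base of GABP matches was 46 bases before the start, and that of NRF1 matches 78 bases before it. YY1 matches had a median first base 17 bases after the start. NDUFA6, NDUFA7, NDUFA9, NDUFB8 and UQCRC1 were among the genes with YY1 letters just after the start. In ATP5PB and ATP5PF the YY1 letters began 2 and 207 bases before it. The letters AAGGTCA, bound by the estrogen-related receptors (ERR), were in 8 members (12.1%), against 2.87% of all and 2.3% of those with a peak, namely NDUFB4, NDUFS6, NDUFS7, COX7A2, COX8A, ATP5F1A, ATP5MG and ATP5MJ. Letters of general promoter elements were about as common as in all promoters. The GC box GGGCGG was in 63.6% of members and 61.8% of all, CCAAT in 34.8% and 36.6%, TATAAA in 9.09% and 9.42%, and the E-box CACGTG in 10.6% and 8.87%. Among all promoters with a peak, the GC box was in 73.8% and TATAAA in 4.89%. The AP-1 letters TGAGTCA were in none of the 66 members, in 3.54% of all promoters and in 2.41% of those with a peak.

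ATF1, whose DNA-binding domain the fusion keeps, binds the cyclic AMP response element (CRE) TGACGTCA. The full CRE was in 4 members (6.06%), NDUFA10, NDUFB2, ATP5MC1 and ATP5ME, against 2.76% of all promoters and 3.47% of those with a peak. The shorter letters TGACG, which every full CRE contains, were in 24 members (36.4%), against 30.1% of all and 35.6% of those with a peak. Promoters of NDUFB2, an accessory subunit of complex I (chr7:140696538-140696737, plus strand), and ATP5MC1 (chr17:48892617-48892816, plus strand) are shown with the CRE in capitals.
NDUFB2: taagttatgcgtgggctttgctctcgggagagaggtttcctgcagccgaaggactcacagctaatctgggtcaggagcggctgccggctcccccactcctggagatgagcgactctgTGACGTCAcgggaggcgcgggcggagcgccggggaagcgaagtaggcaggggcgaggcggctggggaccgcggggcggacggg
ATP5MC1: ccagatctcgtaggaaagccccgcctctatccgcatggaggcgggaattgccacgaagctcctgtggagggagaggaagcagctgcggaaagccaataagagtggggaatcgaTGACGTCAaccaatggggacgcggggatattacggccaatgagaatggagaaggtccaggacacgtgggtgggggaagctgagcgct
The CRE began 53 bases before the start in NDUFB2 and 57 before it in ATP5MC1. The peaks differed between these genes, since NDUFB2 had a 1760-base peak over the start, reaching 517 bases before it, and ATP5MC1 had its peak 477 bases upstream, away from the CRE. NDUFA10 and ATP5ME, with the CRE 48 and 158 bases before the start, had start peaks of 1530 and 2780 bases. Binding of the fusion was not analysed here.

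Genes that work with these complexes were listed as well. Complex II, the succinate dehydrogenase, with its assembly factors had promoter peaks at 8 of 8 genes, and SDHA, SDHB, SDHC and SDHD had widest peaks of 2270, 970, 1450 and 1140 bases. Cytochrome c1 (CYC1), a complex III subunit that the symbol rule leaves out, and cytochrome c (CYCS) both had a promoter peak. The canonical start of CYC1 lay 285 bases from the nearest peak. Assembly factors had promoter peaks at 13 of 14 genes for complex I, 6 of 6 for complex III, 18 of 19 for complex IV and 4 of 4 for ATP synthase. The exceptions were TMEM126B of complex I assembly, 35128 bases from a peak, and TACO1, the translational activator of the mitochondrial COX1 transcript, 21476 bases from one. Together with ATP5PD these were the genes in the lists of the pathway, tissue-restricted forms and copies left aside, without a promoter peak. All of these shares stood above the 63.4% of all protein-coding genes.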

How the data were processed

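SU-CCS-1 chromatin gave 3 H3K27ac ChIP and 3 input samples, grouped here by their titles. For alignment to hg38 the authors used BWA-MEM (version 0.7.10-r789). They dropped duplicates with samtools, called broad peaks with MACS2 (version 2.2.6) against input, and removed peaks in the ENCODE denylist. The deposited values are the start and end coordinates of each peak. How the replicates were joined is not given in the sources used here, and the width of a broad peak depends on signal, depth and the joining of stretches. Start sites came from GENCODE version 44 (genes shared by X and Y were counted once), and a promoter peak had any base within 3 kb of an annotated start. Counts of members were set beside those of all protein-coding genes, with no test across genes. Any member could be named, and positions were given for members without a promoter peak, extremes of width, paralogue pairs, core complex I subunits and X-linked genes. The members and lists were chosen with earlier results of these data known. Python 3.11.15, pandas 2.3.3, numpy 2.4.6, scipy 1.17.1 and matplotlib 3.10.9 were used, and overlaps and motif searches were tested on simulated data. The values of 1 complex I gene are not reported here, though it is included in the counts.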

Additional observations from a re-analysis of the deposited data

How the results depend on the processing

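A promoter peak was present at the same number of members (74) with a 1 kb window, with the canonical start alone, with starts of coding transcripts alone and with the peak midpoint in place of any base. With the widest 50% of peaks it was 67, against 49.0% of all protein-coding genes. The median width of the 96 promoter peaks was 1535 bases, against 1320 for all protein-coding genes, and with the widest 50% of peaks it was 1680, against 1770, so the order of members and all genes turned. In a window of 150 bases around the start, NRF1 letters were in 6 of the 66 members (2.99% of all promoters), the E-box in 1 (5.24% of all), CCAAT in 14 (23.7%) and TATAAA in 3 (5.94%), with fewer bases searched. For the E-box the order of members and all promoters turned. No result changed by more than 1.5 times under the other alternatives tried. For motif counts, keeping canonical starts alone could not change the members, since all 66 already had that start. Keeping genes with a promoter peak alone left 62 of the 66 members. No paired analysis was possible because peaks carry no replicate of origin, and for the same reason no replicate could be left out. The depth behind a peak is unknown, and faint acetylation below the cutoff is not listed.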

Other observations

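Genes for known regulators of respiratory chain genes, in the nucleus or in mitochondrial DNA, were in the peak list too. All 15 of those listed had a promoter peak with the canonical start inside a peak. Over all protein-coding genes these shares were 63.4% and 53.5%, and both were 97.3% among aminoacyl-tRNA synthetase genes. The 15 included NRF1, GABPA, GABPB1, YY1, ESRRA, TFAM and CREB1. The 2690-base peak of GABPA is the one shared with ATP5PF. The widest peak among the 15 genes belonged to PPARGC1A, a coactivator of mitochondrial biogenesis, which had 6 promoter peaks, the widest of 6600 bases. No member start peak was that wide, the highest being 4020 bases at UQCRH. CREB1, a relative of ATF1, had a peak of 4320 bases.

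Of the 83 members, 3 (3.61%) had a peak in the gene body more than 3 kb from every coding start, against 14.7% of all protein-coding genes. The members were also shorter, with a median gene length of 11.6 kb against 27.5 kb, and the part of length in this difference was not tested. The 3 genes were NDUFA10 with 2 peaks and COX7A2L and ATP5MC2 with 1 each.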
